A study of Homo sapiens with 6 samples.

Results

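The BCL2 family genes described here are BCL2, BCL2L1, BCL2L2, MCL1, BAX, BAK1, BBC3, PMAIP1, BCL2L11 and BNIP3L. They were chosen by symbol as anti-apoptotic and pro-apoptotic relatives of BCL2, and all 10 were found among the 16832 gene symbols listed in each library. RNA was sequenced in 6 libraries of wild-type U251 cells, a human cell line established from a glioma. For 3 libraries, called SLCDS, the culture had contained the small-molecule mixture of that name, whose components the labels do not list, over 18 days. For the 3 Control libraries PBS, a salt buffer, had taken its place. The labels give no culture time for Control, so treatment and time in culture cannot be told apart. They also do not say whether the 3 libraries of a group came from separate cultures, so the p-values measure the spread between these libraries, which may be technical. The study's title describes the treated cells as neuronal-like, and the comparison asks how their RNA differs from that of untreated U251 cells.

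Proteins of the BCL2 family decide whether the outer membrane of the mitochondrion is opened, the step that lets cytochrome c out and starts the intrinsic pathway of apoptosis. The effectors BAX and BAK1 form the pores, and the anti-apoptotic proteins BCL2, BCL-XL (from BCL2L1), BCL-W (from BCL2L2) and MCL1 hold them in check. BH3-only proteins such as PUMA (from BBC3), NOXA (from PMAIP1) and BIM (from BCL2L11) bind the anti-apoptotic proteins and so release the effectors, and BNIP3L (also called NIX) carries a related sequence but acts mainly as a receptor that hands mitochondria to autophagy. Glioma cells commonly depend on MCL1 and BCL-XL for survival.

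Promoter sequence is shown for the BH3-only members, because that group holds the gene that passed the test, PMAIP1, and the members with the next largest and the lowest log2 fold change, BBC3 and BCL2L11. Each line is the 250 bases before the start site on the coding strand in the RefSeq annotation of GRCh38.p14, written 5′ to 3′ with matches to 5 short motifs in capitals. These motifs, searched on both strands, were the cAMP response element TGACGTCA, the E-box CACGTG, the GC box GGGCGG, the AP-1 site TGACTCA and the 10-letter p53 decamer. The windows are chr18:59899746-59899995 on the plus strand for PMAIP1, chr19:47232668-47232917 on the minus strand for BBC3 and chr2:111120664-111120913 on the plus strand for BCL2L11.
PMAIP1: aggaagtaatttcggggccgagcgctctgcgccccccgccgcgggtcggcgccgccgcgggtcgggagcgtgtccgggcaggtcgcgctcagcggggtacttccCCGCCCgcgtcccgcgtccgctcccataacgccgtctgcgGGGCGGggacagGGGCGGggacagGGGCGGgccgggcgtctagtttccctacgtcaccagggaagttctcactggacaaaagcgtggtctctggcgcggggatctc
BBC3: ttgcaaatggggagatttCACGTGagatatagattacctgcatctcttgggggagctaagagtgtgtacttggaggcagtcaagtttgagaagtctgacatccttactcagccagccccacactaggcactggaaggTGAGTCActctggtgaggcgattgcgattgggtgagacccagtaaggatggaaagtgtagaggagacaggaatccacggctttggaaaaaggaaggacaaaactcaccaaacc
BCL2L11: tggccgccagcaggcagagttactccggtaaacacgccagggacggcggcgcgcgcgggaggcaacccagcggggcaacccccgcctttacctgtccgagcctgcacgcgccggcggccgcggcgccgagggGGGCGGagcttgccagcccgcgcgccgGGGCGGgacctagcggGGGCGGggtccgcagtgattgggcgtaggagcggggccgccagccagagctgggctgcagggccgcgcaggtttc
The PMAIP1 window held 4 GC boxes, 1 of them on the other strand and so written CCGCCC, and the BCL2L11 window held 3. The BBC3 window held 1 E-box and 1 AP-1 site, which reads TGAGTCA on the strand shown, and no GC box. The BBC3 window was also the poorest of the 3 in G and C, at 49.2%, against 72.8% for PMAIP1 and 76.8% for BCL2L11. Of 35116 such windows over 27305 genes, 42.6% held a GC box, 6.34% an E-box, 4.20% an AP-1 site, 1.65% a cAMP response element and 5.57% the p53 decamer. None of the 3 windows matched the cAMP response element or the p53 decamer, which says only that these letters were not in these 250 bases. Windows were found for 7 of the 10 members.

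The deposited values are FPKM, fragment counts divided by gene length and library depth. Levels of different genes can be set side by side only as far as the authors' gene lengths hold, and the annotation behind these is not given. The steps between low values gave back whole fragment counts, with totals of 16825852, 16558354 and 17166470 fragments in SLCDS libraries, against 16293232, 16264884 and 16958530 fragments in Control libraries. Over the 9 members other than BCL2, single libraries held 135 to 6675 fragments. Control replicate 3 stood apart from the other libraries, and each member's result below is also given without it where that changes the call. Other genes and single lists are given without it only in part. Across genes its log2(FPKM + 1) values correlated at 0.9765 and 0.9767 with those of Control replicates 1 and 2, which correlated with each other at 0.9969, and SLCDS libraries correlated at 0.9966 to 0.9970. The glial marker GFAP averaged 135 ± 7.31 FPKM in SLCDS and 339 ± 23.3 FPKM in Control (SD, n = 3 each; log2 fold change -1.32, limma, adjusted p = 0.000596). In these bulk libraries fewer cells with a transcript and less of it per cell cannot be told apart. Of 8 astrocyte and glioma markers, GFAP among them, 7 averaged at least 1 FPKM over the libraries. SOX2, NES and VIM were abundant in both groups. SOX2 averaged 376 FPKM in SLCDS and 431 FPKM in Control, NES averaged 254 FPKM in SLCDS and 216 FPKM in Control, and VIM averaged 1524 FPKM in SLCDS and 1507 FPKM in Control. With all libraries SOX2 and NES did not pass (limma, adjusted p = 0.284 and 0.186). Without Control replicate 3 SOX2 passed as lower, at -0.17 (limma, adjusted p = 0.00919), and NES as higher, at 0.25 (adjusted p = 0.00539). Summed over the list, 5 markers of microglia and macrophages came to 3.79 to 4.97 FPKM in SLCDS and 3.01 to 3.48 FPKM in Control, and 4 endothelial markers to 4.66 to 5.44 FPKM in SLCDS and 1.52 to 2.72 FPKM in Control. For 6 fibroblast and pericyte markers the sums were 370.4 to 379 FPKM in SLCDS and 365 to 398 FPKM in Control. Oligodendrocyte markers, 4 of 5 listed, summed to 58.6 to 60.1 FPKM in SLCDS and 85.3 to 95.1 FPKM in Control, and 8 neuron markers to 80.9 to 82.9 FPKM in SLCDS and 86.8 to 93.6 FPKM in Control. The summed 8 astrocyte and glioma markers ran from 2560.4 to 2651 FPKM in SLCDS and from 2605 to 2967 FPKM in Control. VIM held the largest part of these sums, so they say little of the markers not named. Of 36 marker genes 35 are listed and none of these was at 0 in all 6 libraries, and their part in the results was not tested.

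PMAIP1 rose in SLCDS, and the other 8 members that were tested did not pass. SLCDS and Control were compared with limma on log2(FPKM + 1), over the 11506 genes with at least 1 FPKM in at least 3 libraries, and rose or fell is used of a gene only where its p adjusted over all of them was under 0.05. BCL2 was below that level in every library and was not tested there. The count of 1 of 9 stands beside 6.09% of all tested genes called, 4.28% higher and 1.82% lower in SLCDS. The median log2 fold change, SLCDS over Control, was 0.125 over the 9 tested members and 0.00 over all tested genes, and the median absolute value was 0.15 over the members and 0.11 over all genes.

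**Figure D1:**
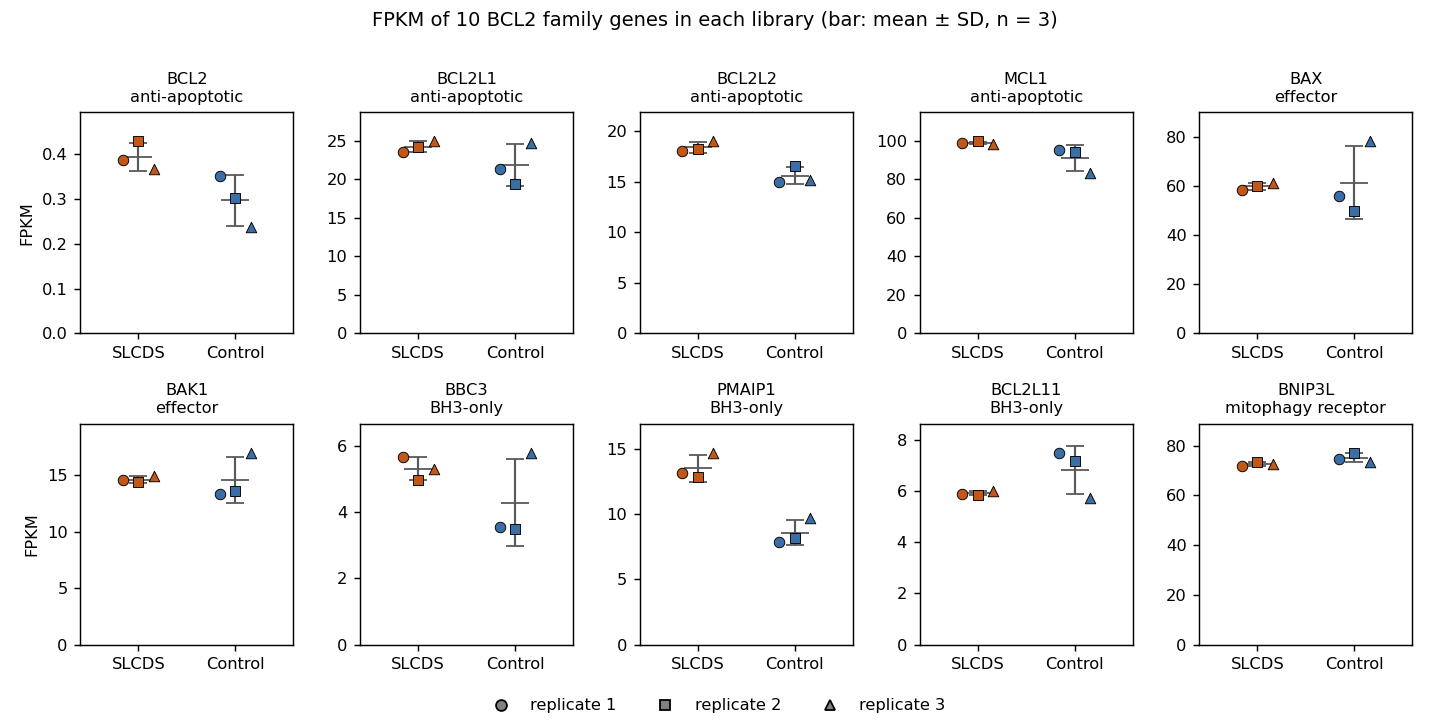
FPKM of the 10 genes in each library, 1 panel a gene with its own linear axis from 0, SLCDS left and Control right, with marker shape for the replicate and a bar for mean ± SD (n = 3). The SLCDS libraries have 12.8 to 14.7 FPKM of PMAIP1 and the Control libraries 7.88 to 9.66 FPKM, and the triangle of Control replicate 3 lies outside the other controls in 9 of the 10 panels.

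Levels within the family spanned 0.238 to 99.6 FPKM. In order of the mean over the 6 libraries the genes were MCL1, BNIP3L, BAX, BCL2L1, BCL2L2, BAK1, PMAIP1, BCL2L11, BBC3 and BCL2. Over the 6 libraries the values of 4 pairs of neighbours in that order overlapped: BNIP3L with BAX, BCL2L2 with BAK1, BAK1 with PMAIP1, and BCL2L11 with BBC3. The other 5 pairs were apart, the closest being BCL2L1, at no less than 19.4 FPKM, and BCL2L2, at no more than 19.0 FPKM, and PMAIP1, at no less than 7.88 FPKM, and BCL2L11, at no more than 7.51 FPKM. The SD between libraries was 0.646% to 7.93% of the mean over the 10 genes in SLCDS and 2.55% to 30.7% in Control. The median over the genes was 2.62% in SLCDS, where counting error alone had a median of 3.46%. In Control the medians were 13% for the SD and 3.36% for counting error. At the median the SLCDS libraries thus spread no more than counting error.

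MCL1, the most abundant member, codes for a short-lived protein that binds BAK1 and NOXA. It measured 98.5, 99.6 and 98.4 FPKM in SLCDS, against 95, 94.3 and 82.9 FPKM in Control. Every SLCDS library was above every Control library, and Control replicate 3 was the lowest of the 6. The means were 98.8 ± 0.639 FPKM in SLCDS and 90.7 ± 6.76 FPKM in Control (SD, n = 3 each), a log2 fold change of 0.12 with a 95% confidence interval of -0.06 to 0.31 (limma, adjusted p = 0.477). Without Control replicate 3 it was 0.06 (limma, adjusted p = 0.232).

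BCL2L1, which codes for BCL-XL, measured 23.5, 24.2 and 24.9 FPKM in SLCDS, against 21.3, 19.4 and 24.7 FPKM in Control. Control replicate 3 lay inside the SLCDS range and the other controls below it. The log2 fold change was 0.15 (95% confidence interval -0.08 to 0.37; limma, adjusted p = 0.488). It was 0.24 without Control replicate 3 and passed (adjusted p = 0.00874).

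BCL2L2, the gene of BCL-W, a relative of BCL-XL that is prominent in the nervous system, measured 18.0, 18.2 and 19.0 FPKM in SLCDS, against 15.0, 16.6 and 15.2 FPKM in Control. The groups did not overlap, and here Control replicate 3 lay between the other controls. The means of 18.4 ± 0.564 FPKM in SLCDS and 15.6 ± 0.866 FPKM in Control differed by 0.23 on the log2 scale (SE 0.07; limma, unadjusted p = 0.0144, adjusted p = 0.135). Leaving out Control replicate 3 gave 0.21, which passed (adjusted p = 0.0195). A readthrough transcript with the neighbouring gene, BCL2L2-PABPN1, is listed separately with 15 to 30 fragments a library, so reads of BCL2L2 may be split with it, and the value of BCL2L2 is uncertain to that extent.

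BCL2, the founder of the family, was its scarcest member, with 0.387, 0.429 and 0.367 FPKM in SLCDS, against 0.351, 0.303 and 0.238 FPKM in Control. These values rest on 66, 72 and 64 fragments in SLCDS, against 58, 50 and 41 fragments in Control. The groups did not overlap, and the counting error of 12.2% in SLCDS and 14.2% in Control is close in size to the spread of the libraries, 7.93% in SLCDS and 19.0% in Control. In a fit of all 16832 genes with no filter the log2 fold change was 0.10 (limma, unadjusted p = 0.040, adjusted p = 0.254), which did not pass. By exact 95% Poisson intervals, which cover counting error only, the highest library, SLCDS replicate 2, had 0.335 to 0.540 FPKM, which overlapped Control replicate 1 (0.266 to 0.454 FPKM) and Control replicate 2 (0.225 to 0.399 FPKM) and lay above Control replicate 3 (0.171 to 0.323 FPKM). No filter meant that 4.95% of all genes were called, 3.71% higher and 1.24% lower, and PMAIP1 was the one member among them.

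The effectors BAX and BAK1 had like means in both groups, and in both genes Control replicate 3 was the highest library. BAX measured 58.6, 60.3 and 61.4 FPKM in SLCDS, against 56, 50 and 78.4 FPKM in Control. The SLCDS values lay between those of Control replicates 1 and 2 and that of Control replicate 3, and the spread was 2.35% of the mean in SLCDS and 24.4% in Control. The log2 fold change was -0.0048 with a 95% confidence interval of -0.37 to 0.36 (limma, adjusted p = 0.993), an interval that leaves room for a change in either direction. BAX was higher in SLCDS by 0.18 without Control replicate 3 (adjusted p = 0.0256). It did not pass when the trends with gene length and base composition, described below, were removed as well (0.08; limma, adjusted p = 0.282).

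BAK1, whose product sits in the mitochondrial membrane of healthy cells, measured 14.6, 14.4 and 14.9 FPKM in SLCDS, against 13.3, 13.6 and 17.0 FPKM in Control. Its pattern over the controls was that of BAX on a smaller scale. The means were 14.6 ± 0.295 FPKM in SLCDS and 14.6 ± 2.04 FPKM in Control, with a log2 fold change of 0.0082 (95% confidence interval -0.23 to 0.24; limma, adjusted p = 0.978). It was 0.11 without Control replicate 3 and did not pass (adjusted p = 0.117).

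PMAIP1, the gene of NOXA, a small BH3-only protein that binds MCL1 and whose gene responds to p53 and to stress of the endoplasmic reticulum, measured 13.1, 12.8 and 14.7 FPKM in SLCDS, against 7.88, 8.18 and 9.66 FPKM in Control. Behind these values stood 423, 406 and 485 fragments in SLCDS, against 246, 255 and 314 fragments in Control. Each SLCDS library was above each Control library, also above Control replicate 3, the highest of the controls. The means of 13.5 ± 1.04 FPKM in SLCDS and 8.57 ± 0.954 FPKM in Control stood in a ratio of 1.58, and the log2 fold change was 0.61 (SE 0.10, 95% confidence interval 0.38 to 0.84; limma, adjusted p = 0.0135). Without Control replicate 3 it was 0.69 (adjusted p = 5.14e-05). Leaving out any one of the other 5 libraries gave values of at least 0.55 and ended the call, with adjusted p of 0.0743, 0.0585 and 0.0783 without SLCDS replicate 1, 2 or 3 and 0.0518 and 0.0562 without Control replicate 1 or 2. The promoter window of PMAIP1 is the one with 4 GC boxes shown above.

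BBC3, the gene of PUMA, a BH3-only protein that binds all the anti-apoptotic members and a p53 target, measured 5.68, 4.98 and 5.30 FPKM in SLCDS, against 3.56, 3.49 and 5.81 FPKM in Control. Control replicates 1 and 2 lay below all SLCDS libraries and Control replicate 3 above them. The means were 5.32 ± 0.349 FPKM in SLCDS and 4.29 ± 1.32 FPKM in Control, and the log2 fold change of 0.28 (95% confidence interval -0.10 to 0.67) did not pass (limma, adjusted p = 0.433). Without Control replicate 3 it was 0.48 and passed (adjusted p = 0.000851). BBC3 has the highest share of G and C among the members, 69.7% of its longest coding transcript.

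BCL2L11, the gene of BIM, a BH3-only protein that can activate BAX directly and that FOXO factors induce, had the opposite direction. It measured 5.9, 5.86 and 6 FPKM in SLCDS, against 7.51, 7.19 and 5.75 FPKM in Control. Control replicate 3 was the lowest of the 6 libraries and the other controls were the highest. The means were 5.92 ± 0.0726 FPKM in SLCDS and 6.82 ± 0.937 FPKM in Control, with a log2 fold change of -0.17 (95% confidence interval -0.41 to 0.07; limma, adjusted p = 0.450). It was -0.27 without Control replicate 3 and passed (adjusted p = 0.00743).

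BNIP3L, the mitophagy receptor and a gene induced by low oxygen, was the second most abundant member, at 71.8, 73.6 and 72.8 FPKM in SLCDS, against 74.6, 77.3 and 73.6 FPKM in Control. The lowest control met the highest SLCDS library to the precision printed. With 4295 to 4472 fragments a library it was among the best-measured members, and its log2 fold change was -0.05 with a 95% confidence interval of -0.20 to 0.10 (limma, adjusted p = 0.771). Leaving out Control replicate 3 gave -0.06 (adjusted p = 0.271).

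**Figure D2:**
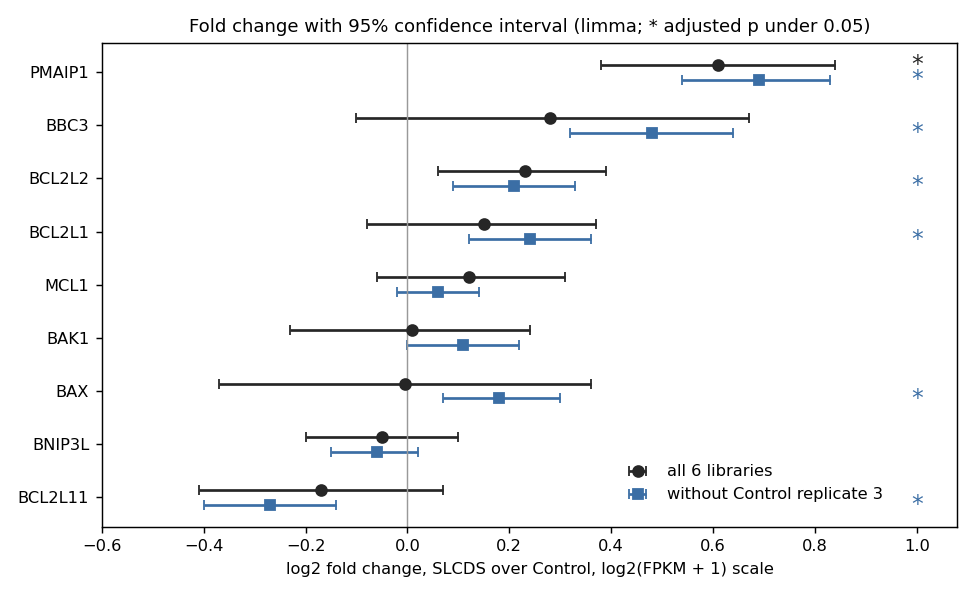
Log2 fold change of the 9 tested members, SLCDS over Control on the log2(FPKM + 1) scale, with 95% confidence intervals from limma, for all 6 libraries (circles) and without Control replicate 3 (squares). A star marks an adjusted p under 0.05: PMAIP1 alone carries one with all libraries, and 6 genes do without Control replicate 3.

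The calls of 5 members changed when Control replicate 3 was left out. Without it 5 members passed as higher in SLCDS, PMAIP1, BBC3, BCL2L1, BCL2L2 and BAX, and 1 as lower, BCL2L11, in a comparison where 27.7% of all tested genes passed, 16% as higher and 11.8% as lower. That library was the highest of the 6 for BAX, BAK1 and BBC3 and the lowest for BCL2, MCL1 and BCL2L11. With all libraries the groups did not overlap for 3 of the 9 tested members, PMAIP1, BCL2L2 and MCL1, all higher in SLCDS, where this held for 29.1% of all tested genes, 15.5% higher and 13.6% lower. With that control set aside, SLCDS and Control values were apart for all 10 members. The share over all tested genes was not counted in that setting, so this count cannot be read as particular to the members.

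The library differed from the other controls by gene length and base composition. On the log2(FPKM + 1) scale Control replicate 3 exceeded the mean of Control replicates 1 and 2 by a median of 0.32 in the shortest of 3 equal classes of tested genes, those up to 2882 bases, and the median difference was -0.27 in the longest class, from 5308 bases. By the share of G and C the medians were 0.27 in the highest class and -0.20 in the lowest. The same medians for SLCDS against Control replicates 1 and 2 were 0.05 and -0.04 by length and 0.03 and -0.03 by base composition. Among the members the difference was 0.56 for BAX, whose gene length in the authors' values is 894 bases, 0.59 for BBC3 at 2376 bases and 0.31 for BAK1 at 2281 bases, but -0.19 for MCL1 at 3950 bases and -0.31 for BCL2L11 at 7700 bases. PMAIP1, short at 1917 bases but with the lowest share of G and C among the members at 37.2%, stood at 0.24. When each library's trend with length and base composition was removed, an adjustment chosen after the data were seen, PMAIP1 and BBC3 were called as higher and BCL2L11 as lower, where 17.7% of 11268 genes were called, 9.05% as higher and 8.62% as lower. The log2 fold change of BBC3 was then 0.33 (limma, adjusted p = 0.00988) and that of BCL2L11 -0.25 (adjusted p = 0.0202).

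**Figure D3:**
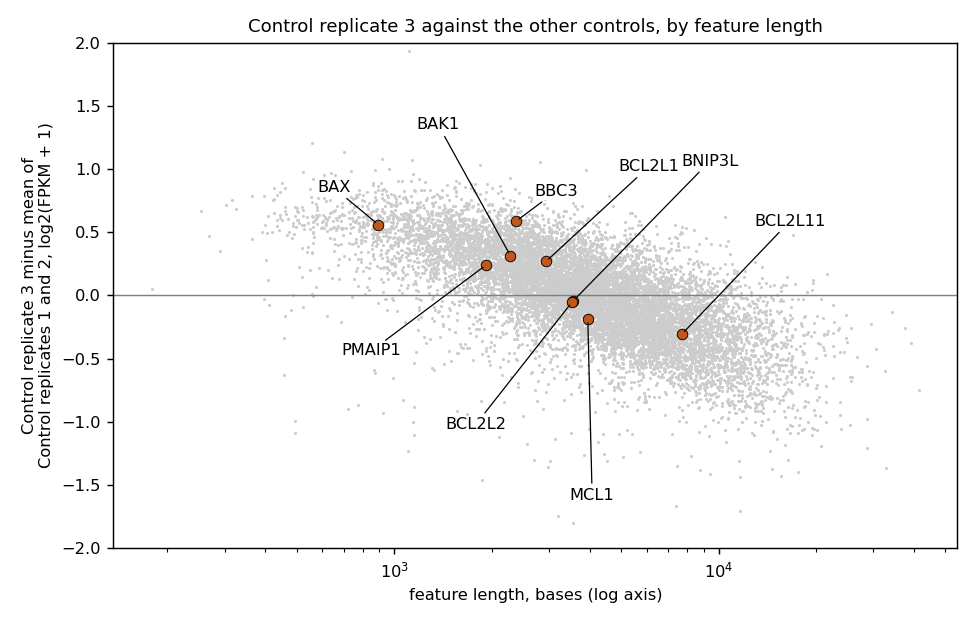
Each grey point is a tested gene, with its length in bases on a log axis and the difference of Control replicate 3 from the mean of Control replicates 1 and 2 in log2(FPKM + 1), and the 9 tested members are in orange. The cloud slopes downward, with BAX at 0.56 among the short genes and BCL2L11 at -0.31 among the long ones.

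Sums and ratios within the family are given as descriptions with no test. The 3 BH3-only genes together came to 24.7, 23.6 and 26 FPKM in SLCDS, against 18.9, 18.9 and 21.2 FPKM in Control. As a share of the summed FPKM of all 10 genes they held 7.96%, 7.52% and 8.19% in SLCDS, against 6.44%, 6.50% and 6.77% in Control, and the groups did not overlap on either measure. PMAIP1 contributed most to both, and of the 3 genes it alone was called and had groups that did not overlap. For BBC3 and BCL2L11 the groups overlapped and the directions were opposite, with log2 fold changes of 0.28 and -0.17. The separation on both measures is thus largely that of PMAIP1. No rise of the BH3-only genes as a class can be read from it. The 4 anti-apoptotic genes summed to 140.3, 142 and 143 FPKM in SLCDS, against 132, 131 and 123 FPKM in Control, which is 45.3%, 45.3% and 44.9% of the family in SLCDS, against 44.7%, 45.0% and 39.3% in Control. The sums of the groups did not overlap, while the shares did.

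The MCL1 to PMAIP1 ratio, of interest because NOXA binds MCL1, was 7.51, 7.79 and 6.68 in SLCDS, against 12.1, 11.5 and 8.59 in Control. It was lower in each SLCDS library than in each control, with means of 7.33 ± 0.576 in SLCDS and 10.7 ± 1.87 in Control, and MCL1 itself was not lower. The ratio thus largely restates the call of PMAIP1 and is no separate result. It is a ratio of RNA, and the proteins were not measured here. The BAX to BCL2 ratio, a common summary of this balance, was 152, 141 and 167 in SLCDS, against 159, 165 and 329 in Control. Control replicate 3 alone set the difference of the means, -64.7 with it and -9.03 without it, and the low counts of BCL2 limit the ratio in every library.

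The wider apoptosis and mitophagy machinery was described through 9 lists, and 70 of their 82 genes were tested. SLCDS was higher for 4 of the 70 and lower for 1, beside the 4.28% and 1.82% of all tested genes, and without Control replicate 3 the counts were 18 and 7, beside 16% and 11.8%. Of 15 further BCL2 and BNIP genes 8 were tested and none passed (median log2 fold change 0.07, against 0.00 over all genes). The most abundant of them were BNIP3, a relative of BNIP3L, with 174 ± 4.36 FPKM in SLCDS, against 167 ± 22.3 FPKM in Control, and BAD, a BH3-only gene whose product growth factor signalling keeps inactive, with 51.9 ± 2.88 FPKM in SLCDS, against 55.8 ± 15.7 FPKM in Control. Without Control replicate 3 BNIP3 was called at a log2 fold change of 0.17 (limma, adjusted p = 0.0381).

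Among the genes that act downstream of the mitochondrion, CASP6 fell and BIRC5 rose. CASP6, an executioner caspase, fell to 12.1 ± 0.491 FPKM in SLCDS, against 15.5 ± 0.375 FPKM in Control (log2 fold change -0.34 with SE 0.07; limma, adjusted p = 0.0291). It was the one of 6 tested caspases to pass, with a median of 0.04 over the 6. None of the 6 genes of the apoptosome and of the proteins released from mitochondria passed (median -0.04), and CYCS, the cytochrome c gene, measured 38.5 ± 1.76 FPKM in SLCDS, against 34.1 ± 2.40 FPKM in Control. AIFM1, which codes for a released flavoprotein, measured 22.7 ± 1.09 FPKM in SLCDS, against 20 ± 2.51 FPKM in Control. Both were called as higher without Control replicate 3, at 0.22 for CYCS (limma, adjusted p = 0.00931) and 0.28 for AIFM1 (adjusted p = 0.00329). In that fit 2 genes of this list of 6 were called as higher and 2 as lower. Of 5 tested inhibitors of apoptosis BIRC5 rose, and the median was 0.18. BIRC5 codes for survivin, which also serves in cell division, and it measured 6.44 ± 0.555 FPKM in SLCDS and 2.59 ± 0.483 FPKM in Control (log2 fold change 1.06 with SE 0.12; limma, adjusted p = 0.00269).

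Upstream, the death receptor gene TNFRSF10B rose, as did E2F1 and HIF1A among 13 transcription factors known to act on BCL2 family genes. TNFRSF10B, the gene of the TRAIL receptor DR5, measured 48.4 ± 1.4 FPKM in SLCDS and 36.3 ± 1.05 FPKM in Control (log2 fold change 0.40; limma, adjusted p = 0.0132), 1 of 6 tested genes of its list to pass (median 0.03). E2F1, a driver of S phase, measured 11.8 ± 0.175 FPKM in SLCDS and 6.86 ± 0.783 FPKM in Control (log2 fold change 0.71; limma, adjusted p = 0.00433). HIF1A, the oxygen-regulated factor that induces BNIP3 and BNIP3L, measured 290.1 ± 3.96 FPKM in SLCDS and 203 ± 20.3 FPKM in Control (log2 fold change 0.52; limma, adjusted p = 0.0239), and the median of the list was 0.09. The calls of CASP6, TNFRSF10B and HIF1A were lost when any SLCDS library or Control replicate 1 was left out, and that of CASP6 also without Control replicate 2, with adjusted p up to 0.167, 0.0968 and 0.138, while those of BIRC5 and E2F1 held at up to 0.0244 and 0.0382. With TPM scaling CASP6 (-0.33) and HIF1A (0.55) also lost theirs.

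In the remaining 3 lists no gene passed. Among 10 tested genes whose products modify or bind BCL2 family proteins the median log2 fold change was 0.00, with 60.2 ± 2.54 FPKM of VDAC1, a channel of the outer mitochondrial membrane, in SLCDS, against 60.3 ± 6.25 FPKM in Control. Among 12 mitophagy receptors and partners the median was -0.05, with 212 ± 7.12 FPKM of SQSTM1 in SLCDS, against 171 ± 30.5 FPKM in Control, and 169.9 ± 6.84 FPKM of FKBP8 in SLCDS, against 206 ± 49.6 FPKM in Control. SQSTM1, the p62 autophagy adaptor, passed without Control replicate 3, at a log2 fold change of 0.47 (limma, adjusted p = 2.99e-05). With all 6 libraries it also passed under quantile normalization (0.39, adjusted p = 0.00818), TPM scaling (0.36, adjusted p = 0.0329), array weights (0.45) and removal of the length and GC trends (0.33). FKBP8 passed as lower with those trends removed (-0.19, adjusted p = 0.0115). Among 6 genes of mitochondrial fusion and fission the median was 0.03, with 82.1 ± 0.394 FPKM of FIS1 in SLCDS, against 87.9 ± 18.1 FPKM in Control, and 43.4 ± 0.447 FPKM of MFN2 in SLCDS, against 40.1 ± 0.872 FPKM in Control.

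**Figure D4:**
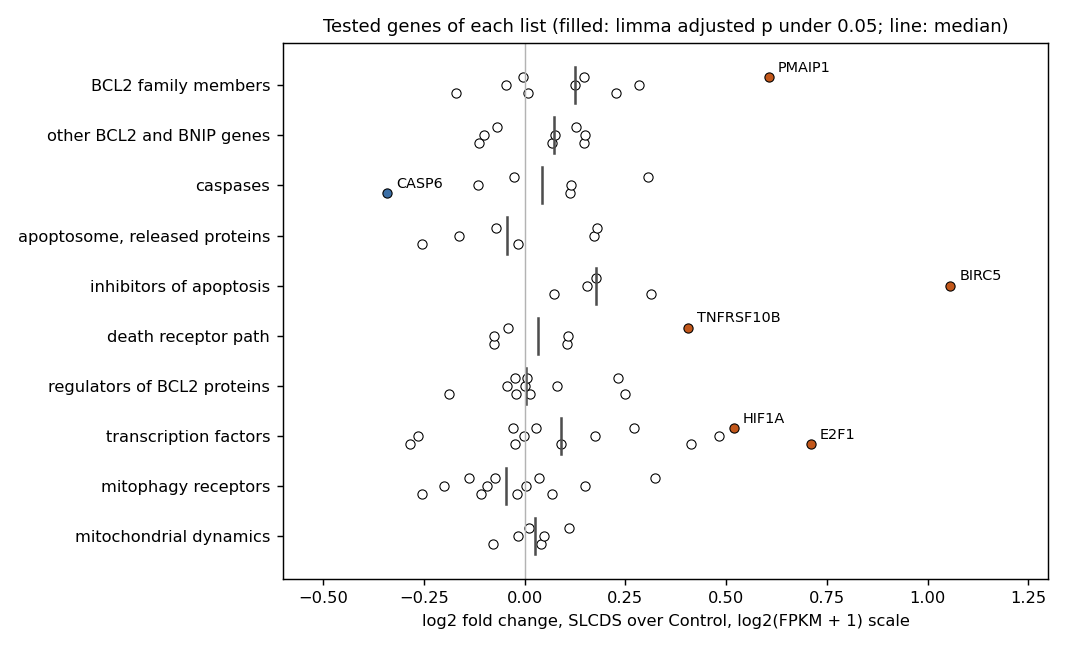
Log2 fold change of each tested gene, SLCDS over Control on the log2(FPKM + 1) scale, for the BCL2 family members (top) and the 9 further lists, with a line at each median and filled points where the limma adjusted p was under 0.05. The filled points are PMAIP1, BIRC5, TNFRSF10B, HIF1A and E2F1 to the right of 0 and CASP6 to the left.

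Genes with the most similar profile were found for the 3 members with the largest absolute log2 fold change, by the Euclidean distance between centred log2(FPKM + 1) values over the 6 libraries, among 8393 tested genes with a mean of at least 5 FPKM. For PMAIP1 they were SLC25A35 (distance 0.0836), PPP1R15A (0.0973) and RGS16 (0.155). Their log2 fold changes were 0.58, 0.61 and 0.60. PPP1R15A, the gene of GADD34, measured 26.1 ± 0.847 FPKM in SLCDS and 16.9 ± 2.21 FPKM in Control. Genes picked in this way have a fold change like that of the member by construction, so the likeness is no separate result. For BBC3 they were MAD2L2 (0.0289), JUNB (0.0922) and CD63 (0.0941), whose profiles share the high value of Control replicate 3. For BCL2L2 they were ZDHHC5 (0.0555), KANK2 (0.0564) and JOSD1 (0.0628), none of which passed the test.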

How the data were processed

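Per the labels' protocols, RNA was isolated with TRIzol and libraries were built with a VAHTS Universal V6 kit. The authors deposited 1 file of linear FPKM values per library, each already scaled by gene length and depth. For aligner, counter and annotation, nothing is given in the sources used here. GRCm38 and mm10, both mouse builds, are named in the submitters' processing notes, although the line is human and the symbols are human, so the genome used for alignment is unclear. This matters for close relatives and overlapping genes, and strand use is not given.

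The steps between low FPKM values gave whole fragments for 16825 of 16832 genes (99.96%, within 0.002 plus 1e-06 per fragment), and with them the depth of each library and each gene's length. Recovered lengths were whole numbers for 99.15% of 10484 genes with at least 100 fragments in every library, within 0.05 bases. They equalled the merged exon length in GENCODE release 29 for 0.3% of 10290 genes.

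Groups and replicate numbers came from the titles. SLCDS (n = 3) was compared with Control (n = 3) in limma 3.58.1 (R 4.3.3) on log2(FPKM + 1), 2-sided, with a trended variance prior and p-values adjusted by Benjamini-Hochberg. On that scale changes of low genes are understated. A gene entered with at least 1 FPKM in at least 3 libraries, which left 11506. GC content is that of the longest coding transcript in GENCODE, available for 98% of tested genes. The procedure was tested on simulated data, where it recovered 46% of 50 changes of 0.5 on the log2 scale and 88% of 50 changes of 1.0. The simulated noise was drawn independently for each gene, with the same SD in all 6 libraries. Changes were placed only in genes with a mean of at least 5 FPKM. An outlying library such as Control replicate 3 was thus not simulated, and recovery in the real data may differ. Smaller changes were not simulated, and a gene that did not pass may still differ. Alternatives were pseudocounts of 0.1 and 0.5, other filters, 4 other scalings, other variance priors, array weights, a replicate block and each library left out in turn. Chosen after seeing the data were a removal of length and GC trends with splines of 4 degrees of freedom and voom on the recovered fragments.

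The members and lists were chosen with earlier results of these data known. Named genes are the 10 members, up to 4 called genes of each list or its 2 most abundant tested genes where none was called, the 3 closest profiles for 3 members, and GFAP, SOX2, NES and VIM. One gene picked by this rule is not reported here, though counts include it. The other steps ran in Python 3.11.15 (pandas 2.3.3, numpy 2.4.6, scipy 1.17.1), and matplotlib 3.10.9 drew the figures.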

Additional observations from a re-analysis of the deposited data

How the results depend on the processing

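PMAIP1 kept its direction under all 21 alternatives and its call under 16, and it lost the call when any library other than Control replicate 3 was left out (0.55 to 0.69 with each library left out). MCL1 kept its direction and did not pass under any. With array weights, which give outlying libraries less weight, BCL2L1 (0.25), BCL2L2 (0.21), BBC3 (0.47) and BCL2L11 (-0.26) passed, BAX passed at 0.19, and 5 members were called higher and 1 lower, beside 1845 and 1432 of all genes and 18 and 5 of the list genes. With length and GC trends removed BBC3 (0.33) and BCL2L11 (-0.25) passed, BAX did not pass at 0.08, and 2 members were higher and 1 lower, beside 1020 and 971 of all genes and 8 and 4 of the list genes. With Control replicate 3 also left out, BCL2L1 (0.18), BCL2L2 (0.17), BBC3 (0.36) and BCL2L11 (-0.25) passed, BAX did not pass at 0.08, and 4 members were higher and 1 lower, beside 1564 and 1824 of all genes and 15 and 7 of the list genes. BAX, at -0.0048 with all libraries, was at 0.02 with upper quartile scaling, 0.06 with quantile normalization and 0.03 with TPM scaling, and BNIP3L was at 0.01 with quantile normalization. Leaving out each library gave 0.07 to 0.24 for BCL2L1, 0.20 to 0.27 for BCL2L2, -0.14 to 0.18 for BAX, -0.05 to 0.11 for BAK1, 0.18 to 0.48 for BBC3 and -0.27 to -0.10 for BCL2L11. It gave 210 to 1838 genes higher and 66 to 1353 lower, 0 to 5 members higher and 0 to 1 lower, and 2 to 18 list genes higher and 0 to 7 lower. With a filter at a mean of 5 FPKM 196 genes were higher and 128 lower, BBC3 having no value there. Quantile normalization gave 326 genes and 2 list genes lower, and TPM scaling 0 list genes lower. The sign of some list and check genes that had not passed turned as follows. BAD was at 0.13 with array weights, 0.03 with trends removed, 0.02 with Control replicate 3 also left out and -0.18 to 0.15 with each library left out. VDAC1 was at -0.003 with median-of-ratios scaling, -0.0042 with trends removed and -0.04 to 0.08 with each library left out. FIS1 was at 0.07 with array weights, 0.0093 with trends removed and -0.16 to 0.08 with each left out, ATF4 at -0.02 with trends removed and -0.07 to 0.19, VIM at -0.07 with quantile normalization and -0.04 to 0.12, and BNIP3 at -0.02 to 0.17. Deviations of same-numbered libraries from their group means correlated at -0.326, 0.360 and 0.065. These values cannot show whether the replicate numbers pair the libraries, because Control replicate 3 stood so far from the other controls. With the replicate block 346 genes were higher and 109 lower, 2 list genes were higher and 0 lower, and PMAIP1 passed (adjusted p = 0.0191), while CASP6 (adjusted p = 0.111), HIF1A (0.0719) and TNFRSF10B (0.0675) lost their calls. Voom on recovered fragments called the same single member. Where a call changed with a setting, the cause was not tested.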

Other observations

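Among further BCL2 family genes below the level tested, 2 BH3-only genes stood out and were named after their values were seen. BMF, which links the cytoskeleton to apoptosis, measured 0.0839, 0.146 and 0.129 FPKM in SLCDS, against 0.446, 0.620 and 0.583 FPKM in Control, from 7, 12 and 11 fragments in SLCDS and 36, 50 and 49 fragments in Control. The groups did not overlap, the means stood in a ratio of 0.22, and in a fit of all 16832 genes with no filter, where 4.95% were called, it fell by 0.47 on the log2(FPKM + 1) scale (limma, adjusted p = 0.00561). HRK, a BH3-only gene known from neurons, measured 0.107, 0.189 and 0.201 FPKM in SLCDS, against 0.0303, 0.0303 and 0.0582 FPKM in Control, from 11, 19 and 21 fragments in SLCDS and 3, 3 and 6 fragments in Control. It did not pass in the same fit (0.16; limma, adjusted p = 0.0562).

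ATF4 and DDIT3, transcription factors of the stress response that act on PMAIP1 and BBC3, were also named after their values were seen. They belong to the list of 13 transcription factors above. Without Control replicate 3, 7 of that list were called as higher and 2 as lower, beside 16% and 11.8% of all tested genes. With length and GC trends removed the counts were 5 and 2, beside 9.05% and 8.62%. A link of either gene to PMAIP1 or BBC3 in these cells was not tested. DDIT3, the gene of CHOP, measured 67.5, 59.5 and 60 FPKM in SLCDS, against 38.4, 39.1 and 57.9 FPKM in Control. Its groups did not overlap and it did not pass (log2 fold change 0.48; limma, adjusted p = 0.157), but without Control replicate 3 it passed at 0.67 (adjusted p = 2.03e-05). With all 6 libraries it also passed under quantile normalization (0.52, adjusted p = 0.0344), TPM scaling (0.52, adjusted p = 0.0371), array weights (0.65) and removal of the length and GC trends (0.54, adjusted p = 0.000571). ATF4 measured 44.4, 40.7 and 40.7 FPKM in SLCDS, against 35.7, 37.5 and 51.8 FPKM in Control, a log2 fold change of 0.03 (limma, adjusted p = 0.941), and it passed at 0.19 without Control replicate 3 (adjusted p = 0.0185) and at 0.17 with array weights (adjusted p = 0.0343).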
